A study of Mus musculus with 15 samples.

Results

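The transcripts described here are 8 genes of Schwann cells and of the neural crest, chosen by name for their known roles and with earlier results of these data known: Sox10, S100b, Erbb3, Foxd3, Cdh19, Fabp7, Ednrb and Mitf. They are 8 of the 23329 genes counted in these tumors, and all 8 were among the 14880 genes tested. RNA sequencing was carried out on 15 mouse tumors from different mice, 1 library per mouse, so the spread between tumors of a group is a spread between animals. The Th-MYCN group held 4 paraspinal thoracic neuroblastomas on a mixed Sv129/C57BL6 background (onset at 10 to 21 weeks, 2 of 4 female), and the Th-MYCN/Casp2-/- group held 4 such tumors from mice that also lacked caspase-2 (onset at 15 to 24 weeks, 3 of 4 female). The EμMyc group held 4 lymphomas of the cervical lymph node on C57BL/6 (onset at 13 to 19 weeks, 0 of 4 female), and the EμMyc/Casp2-/- group held 3 (onset at 8 to 12 weeks, 1 of 3 female). Single tumors are named as labelled, for example MYCN175 or MYCNC2ko118.

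The Th-MYCN transgene places MYCN under the promoter of tyrosine hydroxylase, which is active in neuroblasts of the sympathetic lineage, and the EμMyc transgene places c-Myc under the Eμ enhancer of the antibody heavy chain locus, which is active in B lineage cells. Caspase-2, the product of Casp2, is a protease with tumor suppressor functions and was deleted in the whole body of the Casp2-/- animals, the stroma included. The neuroblastomas had been chosen for little or no blood vascularization, so they are not a random draw from these mice. In the lymphomas genotype and onset did not overlap, and their parts cannot be told apart.

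The neural crest is an embryonic cell population that gives rise to sympathetic neurons, Schwann cells, satellite glia, enteric neurons and melanocytes. Sox10, an HMG-box transcription factor, marks migrating crest cells and is kept in glia and melanocytes but lost as sympathetic neurons form, whereas Foxd3, a forkhead factor, holds crest cells in a progenitor state. Schwann cell precursors depend on neuregulin signals received by the ErbB3 receptor and express the adhesion molecule Cdh19 and the fatty acid binding protein Fabp7, S100b is a calcium-binding protein of more mature glia, Ednrb is the endothelin receptor needed by enteric and melanocyte precursors, and Mitf is the transcription factor that directs melanocyte development and also acts in osteoclasts and macrophages. Neuroblastic tumors can hold a glial stroma, and transcripts of this kind in a bulk tumor may come from it. In such bulk samples fewer cells of a type and less RNA per cell cannot be told apart.

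The labelled tumor types were checked with their defining genes. The summed level of 14 neuroblast genes, in CPM (reads of a gene scaled to a common library size), was 5385 to 8936 in the neuroblastomas and 9.13 to 39.9 in the lymphomas, and that of 8 B cell genes was 8.14 to 23.0 and 2060 to 4536. Libraries held 4940464 to 17638029 gene reads, and 3 reads, taken as the limit of detection for counting error only, corresponded to 0.173 to 0.586 CPM. The library of EuMycC2ko215 stood apart with the fewest reads and 11.2% unmapped reads, against at most 3.89% in the other libraries. Casp2 itself was counted over the whole gene and so does not show a deletion of part of it. It was at 125 to 203 CPM in EμMyc and 51.9 to 76.1 CPM in EμMyc/Casp2-/- tumors. In the Th-MYCN tumors it was at 76.0 to 125 CPM and in the Th-MYCN/Casp2-/- tumors at 39.6 to 80.2 CPM, and these 2 ranges overlapped.

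The promoter sequences of Ednrb and Mitf are shown because these were the members that differed between the neuroblastomas of the 2 genotypes in the test below. Each sequence is the 250 bases before a RefSeq transcription start on GRCm38.p6, read 5′ to 3′ on the strand of the gene. The stretch of Ednrb is chr14:103843702-103843951 on the minus strand. For Mitf, which has several starts spread over its length, the first listed start has chr6:97806808-97807057 and the last chr6:97991533-97991782, both on the plus strand.
Ednrb: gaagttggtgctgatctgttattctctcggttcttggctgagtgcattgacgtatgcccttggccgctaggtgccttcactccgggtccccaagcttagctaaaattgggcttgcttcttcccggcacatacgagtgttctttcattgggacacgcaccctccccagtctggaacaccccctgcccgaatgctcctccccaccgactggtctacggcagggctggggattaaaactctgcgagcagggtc
Mitf, first start: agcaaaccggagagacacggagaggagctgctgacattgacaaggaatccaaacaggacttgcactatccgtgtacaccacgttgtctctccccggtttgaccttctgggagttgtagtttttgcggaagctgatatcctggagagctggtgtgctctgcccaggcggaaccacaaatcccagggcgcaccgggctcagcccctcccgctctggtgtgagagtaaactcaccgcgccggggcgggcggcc
Mitf, last start: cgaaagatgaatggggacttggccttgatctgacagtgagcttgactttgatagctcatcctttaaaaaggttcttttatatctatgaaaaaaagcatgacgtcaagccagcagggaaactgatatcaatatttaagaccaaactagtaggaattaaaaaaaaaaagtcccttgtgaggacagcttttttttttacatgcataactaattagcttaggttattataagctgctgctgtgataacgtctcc
All letters are in lower case because neither of the 2 motifs searched on both strands, ACAAAG for Sox factors and CATGTG for Mitf, was found in these windows or in any other of the 7 windows listed for 5 of the 8 members. In all 32851 windows of this length ACAAAG was present in 16.5% and CATGTG in 12.3%, so most windows lacked these letters. The first and last Mitf windows differed in base composition, with 59.6% and 36% G and C. Counts per gene add up all starts, and the levels below do not tell which of the Mitf promoters was in use.

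The genes lie on 6 chromosomes of GRCm38. Sox10, on the minus strand of chromosome 15, spans 79154908 to 79165240, and Foxd3, with a single exon on the plus strand of chromosome 4, spans 99656299 to 99658622. S100b, Erbb3 and Fabp7 are all on chromosome 10, at 76253853 to 76261159, 128567523 to 128589652 and 57784881 to 57788450. Cdh19 spans 110888326 to 110977584 of chromosome 1, Ednrb 103814625 to 103844402 of chromosome 14 and Mitf 97807052 to 98021349 of chromosome 6. Foxd3 shares 89 exon bases with the annotated miRNA gene Gm23366, and the exons of the other 7 overlap none of another gene. The libraries did not keep strand, with 48.8% to 49.3% of the strand-specific reads in the strand column used here, so that sense and antisense reads could not be told apart.

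All 8 genes were detected in each of the 8 neuroblastomas. Divided by exon length, the mean level in Th-MYCN tumors was highest for Fabp7 at 5.40 CPM per kb, followed by Sox10 at 4.00 and Foxd3 at 2.78 CPM per kb. Mitf, at 1.52 CPM per kb, and Ednrb, at 1.32 CPM per kb, came next, ahead of Cdh19, S100b and Erbb3, which lay between 0.735 and 0.841 CPM per kb. The ranges of all neighbours in this order overlapped. In Th-MYCN/Casp2-/- tumors the order per kb was Fabp7 (24.6 CPM per kb), Sox10 (6.58), Foxd3 (4.67), S100b (2.49), Cdh19 (1.79), Erbb3 (1.08), Ednrb (0.400) and Mitf (0.345). There, only the ranges of Cdh19 and Erbb3 and those of Erbb3 and Ednrb were apart, and Ednrb and Mitf had moved from the middle to the end of the order.

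**Figure D1:**
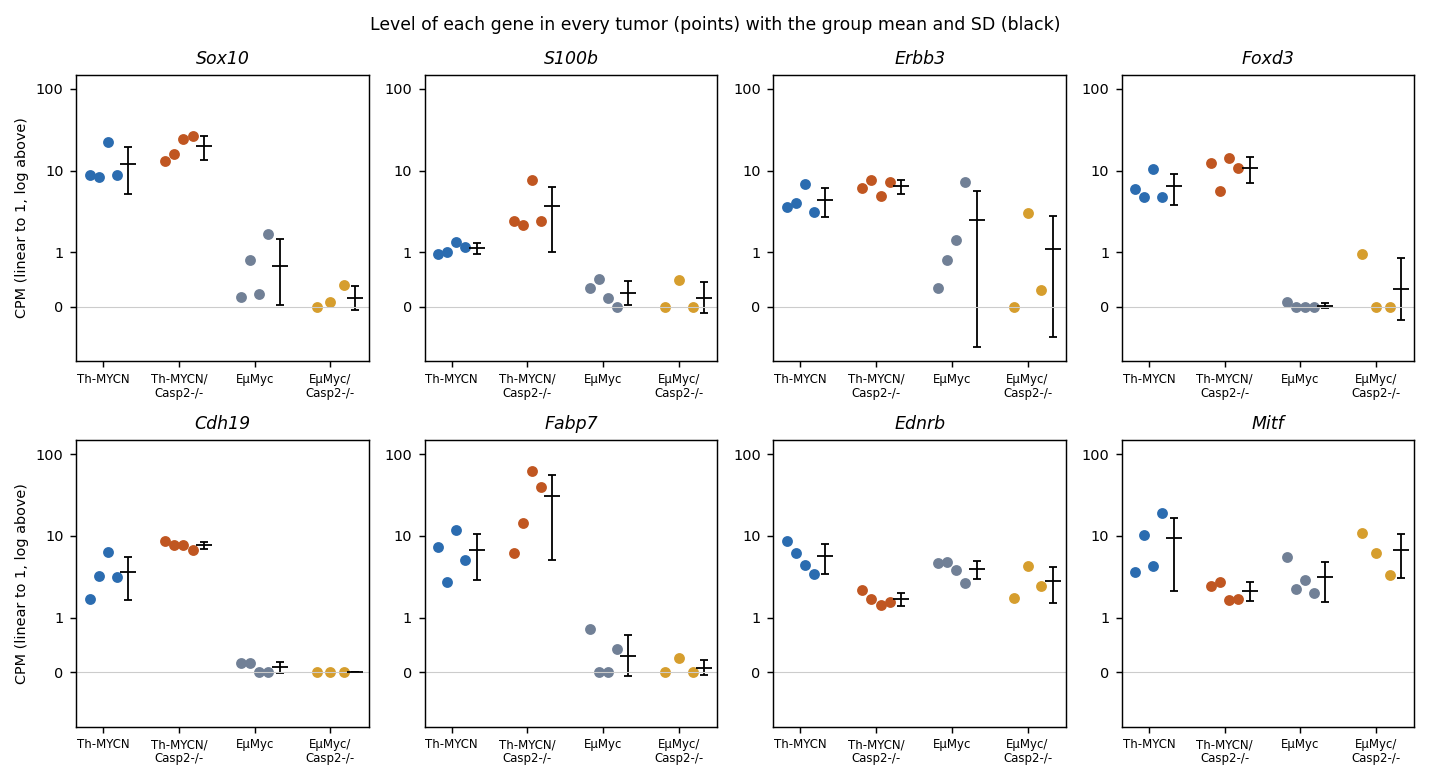
Level of each of the 8 genes in every tumor, in TMM-scaled CPM on an axis that is linear below 1 and logarithmic above. Points are tumors, the black marks beside them the group mean ± SD (n = 4, 4, 4 and 3 from left to right), and the axis reaches below 0 only so that the SD bars fit. Sox10, S100b, Foxd3, Cdh19 and Fabp7 lie at or below 1.70 CPM in the lymphomas, whereas Ednrb and Mitf are above 1 CPM in all 15 tumors and are lower in each Th-MYCN/Casp2-/- than in each Th-MYCN tumor.

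The comparison of Th-MYCN/Casp2-/- with Th-MYCN tumors asked which of these transcripts differed with loss of Casp2 in neuroblastoma. Ednrb and Mitf were lower in the Casp2-/- tumors, 3.29-fold and 4.37-fold, and passed the likelihood ratio test (LRT) of edgeR at a Benjamini-Hochberg false discovery rate (FDR) under 0.05 and a fold change over 2. The 6 glial and crest genes Sox10, S100b, Erbb3, Foxd3, Cdh19 and Fabp7 had higher means in the Casp2-/- tumors, and none passed. Of all genes tested, 0.188% were called higher and 0.625% lower, beside 0 and 2 of the 8. The median log2 fold change was 0.73 over the 8 genes and -0.0024 over all genes tested. With edgeR's quasi-likelihood test (QLF), which is the stricter, 0 of the 8 were called, and 0.0336% of all genes were. At an unadjusted p under 0.05 there were 5 of the 8 by LRT, where 7.78% of all genes were, and 4 by QLF, where 6.77% were. DESeq2 called Ednrb and Mitf at FDR 0.00943 and 0.0272.

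Ednrb was at 8.55, 6.25, 4.39 and 3.40 CPM in MYCN175, MYCN235, MYCN332 and MYCN391. In MYCNC2ko118, MYCNC2ko144, MYCNC2ko176 and MYCNC2ko180 it was at 2.16, 1.67, 1.45 and 1.54 CPM. Every Casp2-/- tumor lay below every Th-MYCN tumor, and the Casp2-/- values were close together (SD 0.317 CPM around a mean of 1.71) while those of the Th-MYCN tumors were spread (5.65 ± 2.27 CPM, SD, n = 4). The log2 fold change was -1.72 (SE 0.429), with an FDR of 0.0195 by the edgeR LRT and 0.223 by QLF. The call was kept in 2 of the 8 fits that left out a tumor, those without MYCN332 and without MYCN391. It was lost in the other 6, at log2 fold changes of -1.90 to -1.43 over all 8 and an edgeR FDR of at most 0.125.

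Mitf was at 3.66, 10.4, 4.27 and 19.3 CPM in the Th-MYCN tumors, in the same order, and at 2.45, 2.76, 1.64 and 1.71 CPM in the Casp2-/- tumors. The groups did not overlap, but MYCN175 and MYCN332 lay close above the Casp2-/- tumors, and MYCN391 and MYCN235 carried most of the Th-MYCN level. The log2 fold change was -2.13 (SE 0.571), with an FDR of 0.0413 by the edgeR LRT and 0.257 by QLF. Without MYCN391 it was -1.50, at an edgeR FDR of 0.473, and the call was kept in 2 of the 8 fits that left out a tumor, those without MYCN175 and without MYCN332. With sex as a covariate the value was -1.96 (edgeR FDR 0.231) and with onset as a covariate -1.86 (edgeR FDR 0.190). Of all genes, 3.68% had a lower range in the Casp2-/- tumors with no overlap between genotypes, and 2.94% a higher range.

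**Figure D2:**
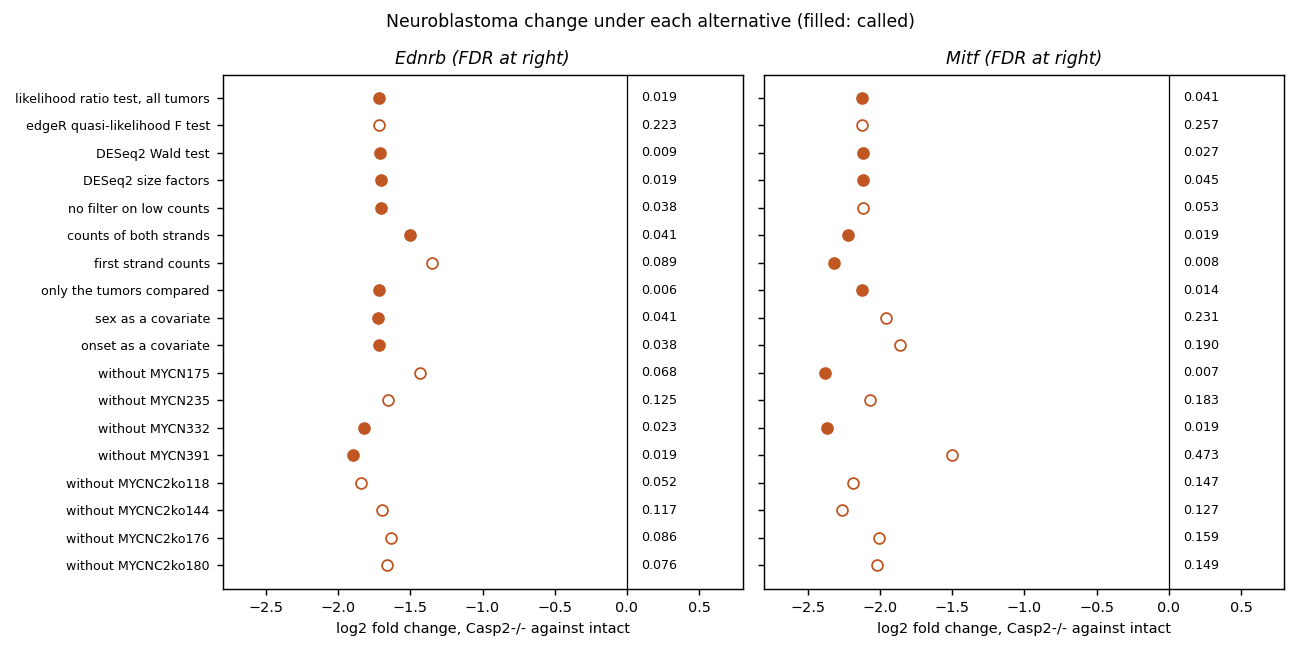
Log2 fold change of Ednrb and of Mitf between the 2 genotypes of neuroblastoma as reported (top) and under each of 17 other settings, with the FDR at the right and filled points where the gene was called. Ednrb was called in 9 of the 17 and Mitf in 7, and values ranged from -1.90 to -1.35 for Ednrb and from -2.38 to -1.50 for Mitf.

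Of the transcription factors, Sox10 was at 8.86, 8.42, 22.7 and 8.83 CPM in the Th-MYCN tumors and at 13.1, 16.1, 24.7 and 26.5 CPM in the Casp2-/- tumors. MYCN332 stood with the Casp2-/- tumors and the other 3 Th-MYCN tumors lay below all of them, so the groups overlapped through MYCN332. The log2 fold change of Sox10 was 0.72 (SE 0.563, edgeR LRT FDR 0.949). Without MYCN332 it was 1.20. Foxd3 was at 5.99, 4.72, 10.3 and 4.82 CPM and at 12.5, 5.65, 14.5 and 10.7 CPM, with overlapping groups and a log2 fold change of 0.74 (SE 0.567, edgeR LRT FDR 0.945).

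Among the markers of Schwann cell precursors, Cdh19 was at 1.71, 3.20, 6.35 and 3.15 CPM in the Th-MYCN tumors and at 8.57, 7.77, 7.71 and 6.66 CPM in the Casp2-/- tumors. The groups did not overlap, and the Casp2-/- tumors were alike (7.68 ± 0.783 CPM, SD, n = 4). The log2 fold change of 1.09 (SE 0.483) had an edgeR LRT FDR of 0.485. Fabp7 had the widest range of the 8 genes over these tumors, at 7.33, 2.76, 11.8 and 5.13 CPM and at 6.27, 14.2, 62.8 and 39.7 CPM. MYCNC2ko176 and MYCNC2ko180 lay above every other tumor and MYCNC2ko118 within the Th-MYCN range. The log2 fold change of Fabp7 was 2.18 (SE 0.836, edgeR LRT FDR 0.338).

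S100b, the marker of more mature glia, was at 0.977, 1.02, 1.33 and 1.17 CPM in the Th-MYCN tumors and at 2.45, 2.18, 7.71 and 2.44 CPM in the Casp2-/- tumors. All 4 Casp2-/- tumors were above all 4 Th-MYCN tumors, and MYCNC2ko176 stood well above the other 3. Its log2 fold change was 1.70 (SE 0.635, edgeR LRT FDR 0.277), and 1.07 without MYCNC2ko176. Erbb3, the neuregulin receptor, was at 3.54, 4.07, 6.93 and 3.15 CPM and at 6.05, 7.77, 4.92 and 7.23 CPM, with overlapping groups and a log2 fold change of 0.55 (SE 0.838, edgeR LRT FDR 1). Where the fit held only the 8 neuroblastomas, S100b (log2 fold change 1.72, edgeR LRT FDR 0.0488) and Fabp7 (2.21, edgeR LRT FDR 0.0484) were called higher in the Casp2-/- tumors beside the lower calls of Ednrb and Mitf. Both FDRs were close to the threshold, and that fit also called more of all genes than the main fit. It was the only 1 of the 17 other settings in which S100b or Fabp7 was called.

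**Figure D3:**
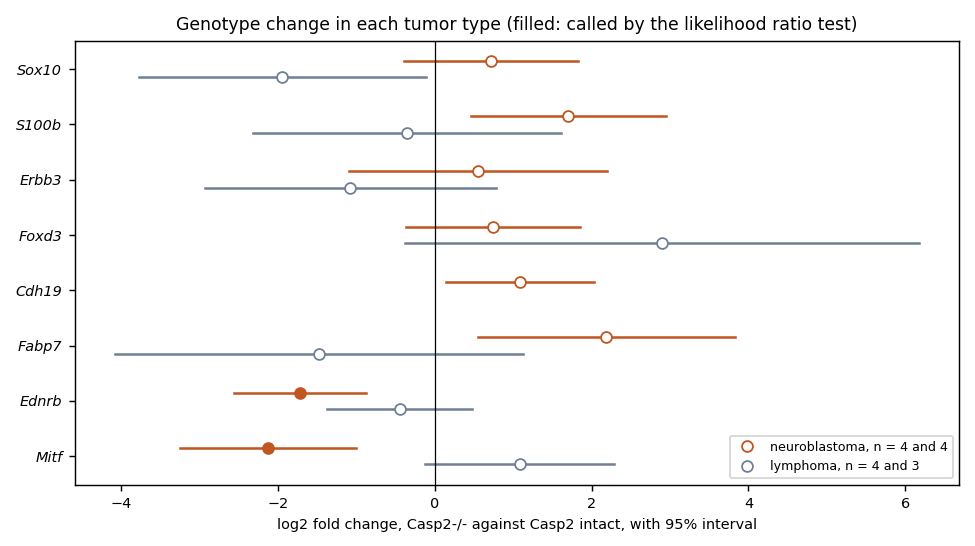
Log2 fold change with loss of Casp2 for each of the 8 genes in neuroblastomas (4 against 4) and lymphomas (3 against 4), as points with 95% confidence intervals from the edgeR fit and filled where the gene was called; Cdh19 is not drawn for the lymphomas, where 1 group had 0 reads. In the neuroblastomas 6 genes lie above 0 and Ednrb and Mitf below, at -1.72 and -2.13.

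Whether the 8 genes varied together from tumor to tumor was examined next. MYCN332 was the highest of the Th-MYCN tumors for all 6, while MYCN175 was the highest for Ednrb and MYCN391 for Mitf. Among the Casp2-/- tumors MYCNC2ko176 was the highest for S100b, Foxd3 and Fabp7 and the lowest for Erbb3, Ednrb and Mitf. Correlations over the 8 neuroblastomas were computed for all 28 pairs of members on log2 CPM, with two-sided exact permutation tests. All 15 pairs between the 6 genes were positive (r of 0.37 to 0.88, median 0.71), all 12 pairs of Ednrb or Mitf with them were negative (r of -0.86 to -0.57), and Ednrb and Mitf had r = 0.57 with each other. Of the 28 pairs 15 had an unadjusted exact p under 0.05 and 0 had an adjusted value under 0.05, the lowest being 0.0587.

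The pair with the highest r was Sox10 and Fabp7 (Pearson r = 0.88, exact permutation p = 0.00238, adjusted 0.0587, Spearman rho = 0.93, exact permutation p = 0.00223, adjusted 0.0625). Without the 2 tumors farthest from the median of Sox10 its r was 0.80 over 6 tumors, and on deviations from the genotype means it was 0.80 (exact permutation p within genotypes 0.0226, adjusted 0.601). Cdh19 and Ednrb had r = -0.86 (exact permutation p = 0.00838, adjusted 0.0587, rho = -0.71, exact permutation p = 0.0576, adjusted 0.108). This pair stood at r = -0.81 without the 2 farthest tumors and at r = -0.53 on deviations from the genotype means. Each of the 8 genes differed in mean between the genotypes, and Cdh19, S100b, Ednrb and Mitf had ranges that did not overlap. Pooled values of every pair therefore hold a genotype difference. On deviations from the genotype means 14 of the 15 pairs between the 6 genes were positive (r of -0.32 to 0.80), 11 of the 12 pairs with Ednrb or Mitf were negative (r of -0.59 to 0.06), and Ednrb and Mitf had r = -0.49, with no adjusted value below 0.601. Onset in weeks was set against each of the 8 genes. Over all tumors the largest r was 0.58, for S100b (exact permutation p = 0.132, adjusted 0.769). Its rho was 0.27 (exact permutation p = 0.532, adjusted 0.823). On deviations from the genotype means the largest r were -0.69 for Erbb3 and -0.68 for Cdh19. Their exact permutation p within genotypes were 0.115 and 0.0868, each 0.458 adjusted. Without the 2 tumors whose onset was farthest from the median, the largest was -0.72 for Ednrb (exact permutation p = 0.1, adjusted 0.8).

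**Figure D4:**
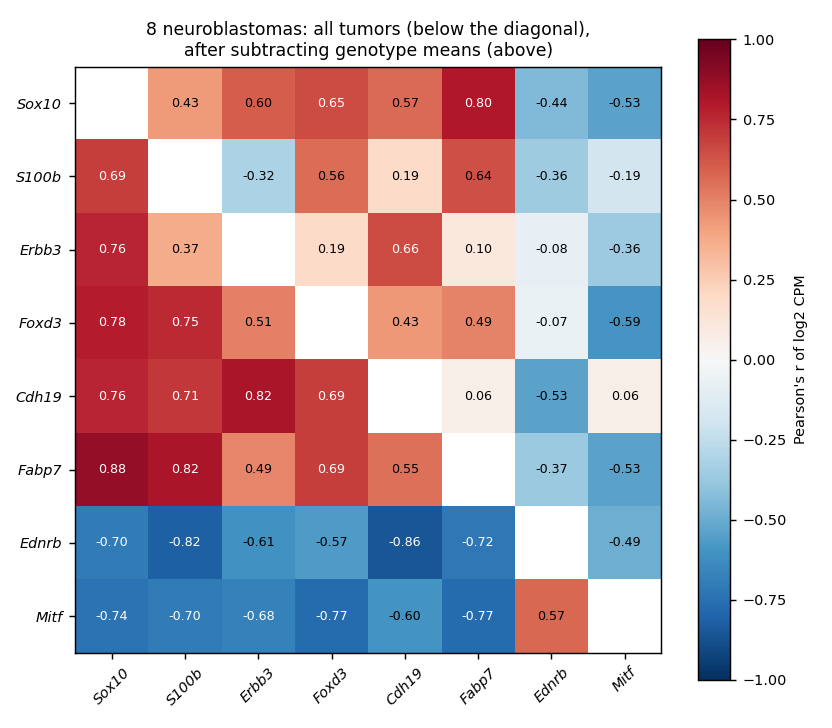
Pearson's r of log2 CPM for every pair of the 8 genes over the 8 neuroblastomas, as colors and numbers, for all tumors below the diagonal and for deviations from the genotype means above it. The 15 pairs between Sox10, S100b, Erbb3, Foxd3, Cdh19 and Fabp7 are positive in the pooled values and the 12 pairs of Ednrb or Mitf with them negative, and Ednrb with Mitf goes from 0.57 to -0.49.

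Among 13783 genes with a mean of at least 1 CPM in the neuroblastomas, those with a pattern over the 8 tumors most like that of Sox10 were Cox7b (r = 0.98), Spata13 (0.97), Col16a1 (0.97), Sema3b (0.96), Stoml1 (0.96), Acsbg1 (0.96), Wbp2 (0.96), Map1lc3a (0.95), Clta (0.95) and Gal3st1 (0.95). Fabp7 ranked 104 in this order of likeness to Sox10, Foxd3 384, Erbb3 467, Cdh19 471 and S100b 818, while Ednrb ranked 13215 and Mitf 13395 of 13782. Ednrb was most like Tinagl1 (0.95), Astn2 (0.94), Usp39 (0.94), Zfp202 (0.94) and Ccdc18 (0.93). On deviations from the genotype means these r with Ednrb were lower, from 0.62 for Astn2 to 0.81 for Zfp202. Those of the genes most like Sox10 were then 0.93 to 0.99. Astn2 was at 7.15, 6.25, 3.69 and 3.27 CPM in the Th-MYCN tumors and at 0.216, 0.129, 0.289 and 0.406 CPM in the Casp2-/- tumors. Genes most like Mitf included Pik3r4 (0.98), Fcgr4 (0.97), Urb2 (0.96) and Clec4a3 (0.96). Fcgr4, an Fc receptor of myeloid cells, was at 5.13, 18.2, 2.83 and 124 CPM and at 2.16, 1.41, 0.964 and 1.30 CPM, with the highest value in MYCN391 as for Mitf. These likenesses are over 8 tumors of which 4 share a genotype and are given without a test.

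Genes of the same cells and pathways were followed in lists. Of 22 Schwann cell myelin genes 20 were counted and 16 tested, 0 were called higher in the Th-MYCN/Casp2-/- tumors and 1 lower. The one called was Gldn, gliomedin of the node of Ranvier, at 0.672, 4.14, 6.00 and 3.33 CPM in the Th-MYCN and 0.504, 0.450, 0.0964 and 0.487 CPM in the Casp2-/- tumors (log2 fold change -3.15, edgeR LRT FDR 0.0142, QLF FDR 0.270). DESeq2 called 0 genes of this list. Leaving out a tumor, Gldn was called in 2 of the 5 fits in which it passed the filter. The most abundant genes of the list overlapped between genotypes, with the myelin protein Mbp at 74.2 ± 20.6 and 76.1 ± 14.4 CPM (SD, n = 4 each) and the myelin protein Pmp22 at 62.8 ± 20.9 and 49.5 ± 26.2 CPM. The median log2 fold change of the list was 0.21.

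Lgi4 and Gjc3 of the myelin list, chosen after their values were seen, had higher ranges in the Casp2-/- tumors without overlap, as S100b and Cdh19 had. Lgi4, a protein secreted by Schwann cells, was at 13.8, 12.3, 28.6 and 10.1 CPM and at 32.9, 33.3, 37.3 and 39.2 CPM, without overlap (log2 fold change 1.14, edgeR LRT FDR 0.702). Gjc3, a glial connexin, was at 0.672 to 0.750 CPM and 1.41 to 2.41 CPM (log2 fold change 1.36, edgeR LRT FDR 0.160). Neither difference passed the test.

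Of 15 genes of non-myelinating Schwann cells and satellite glia 14 were tested and 0 were called by the edgeR LRT, with 1 of them, Gfap, at an unadjusted p under 0.05, and 0 by QLF or DESeq2. Their median log2 fold change was 0.37. The adhesion molecule L1cam was at 286 ± 64.3 and 414 ± 151 CPM and the lipocalin Apod at 137 ± 71.3 and 298 ± 58.4 CPM in Th-MYCN and Casp2-/- tumors (SD, n = 4 each), and both overlapped. The list was not uniform in direction, with 10 positive and 4 negative log2 fold changes. Gfra3, a receptor of the GDNF family, was at 226 ± 101 and 172 ± 110 CPM, and Ngfr, Slc1a3 and Nes also had lower means in the Casp2-/- tumors. Scn7a, a sodium channel, and Col28a1, a collagen of peripheral nerve, again named after their values were seen, had ranges that did not overlap (17.4 to 27.9 and 28.3 to 50.7 CPM for Scn7a, 4.58 to 12.0 and 15.4 to 25.9 CPM for Col28a1) and an edgeR LRT FDR of 0.826 and 0.823. The summed level of this list was 713 to 951 CPM in the Th-MYCN and 983 to 1373 CPM in the Casp2-/- tumors, without overlap. Apod and L1cam had the largest differences between group means toward the Casp2-/- tumors, 161 and 128 CPM, where that of the whole sum was 289 CPM. The other 13 genes summed to 345 to 542 and 339 to 581 CPM, which overlapped, in a comparison added after the sums were seen. Apod and L1cam were left out because of the size of their differences, so a smaller difference in the rest was built in by this choice. The summed level of the myelin list, 269 to 351 and 313 to 421 CPM, overlapped.

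**Figure D5:**
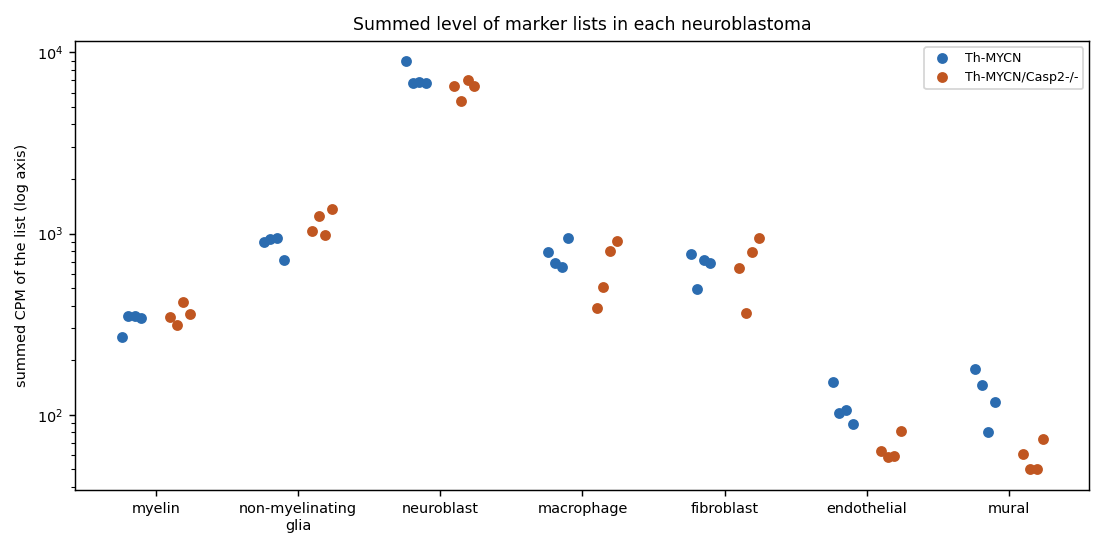
Summed level of the genes of each list in every neuroblastoma, in CPM on a logarithmic axis, by genotype. The sums of the non-myelinating and satellite glia list are higher in all 4 Casp2-/- tumors (983 to 1373 against 713 to 951), with the largest differences in Apod and L1cam. Those of the endothelial and mural lists are lower (58.8 to 82.0 against 88.7 to 151, and 50.1 to 73.4 against 80.1 to 180), and those of the fibroblast and macrophage lists overlap.

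Of 17 neural crest specifier genes 10 were tested and 1 was called, with a median log2 fold change of -0.09. The call, Tfap2a, rested on MYCNC2ko118 at 47.8 CPM, since the other 3 Casp2-/- tumors were at 0.514 to 1.06 CPM and the Th-MYCN tumors at 0.122 to 0.693 CPM (log2 fold change 5.19, edgeR LRT FDR 0.0247, QLF FDR 0.261). Without MYCNC2ko118 it was 1.30, at an edgeR LRT FDR of 0.944. DESeq2 called 0 genes of this list. Tfap2b, a relative of Tfap2a and a factor of sympathetic progenitors, was at 760 ± 156 and 628 ± 243 CPM.

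Of 10 genes for neuregulin and endothelin ligands and their partners 7 were tested and 0 were called by the edgeR LRT, QLF or DESeq2, with Nrg2 and Erbb2 at an unadjusted LRT p under 0.05. Nrg2, a ligand of ErbB receptors, was at 4.05 ± 1.09 CPM in the Th-MYCN and 8.93 ± 4.80 CPM in the Casp2-/- tumors (SD, n = 4 each, edgeR LRT FDR 0.532). Erbb2, the kinase partner of ErbB3, was at means of 1.76 and 3.83 CPM (edgeR LRT FDR 0.607). Edn3, the endothelin that acts through Ednrb, had too few reads for the filter and is given after its values were seen. It was at 0.489, 2.61, 0.866 and 2.47 CPM in the Th-MYCN tumors and at 0.216, 0, 0 and 0 CPM in the Casp2-/- tumors, without overlap. When no gene was filtered, Edn3 passed the edgeR LRT (FDR 0.0145) and not QLF (FDR 0.303). Ece1 and Ece2, the enzymes that activate endothelins, were at 40.5 ± 12.1 and 52.7 ± 9.82 CPM and at 90.1 ± 13.5 and 83.1 ± 9.52 CPM.

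Of 13 melanocyte genes 5 were tested and 0 were called by the edgeR LRT, QLF or DESeq2, with 0 at an unadjusted LRT p under 0.05. Dct and Tyr, the pigment enzymes that define melanocytes and are targets of Mitf, had 0 reads in all neuroblastomas. Not all genes of the list were absent. Slc24a5, the most abundant, was at 126 ± 11.9 CPM in the Th-MYCN and 134 ± 47.3 CPM in the Casp2-/- tumors (SD, n = 4 each). Mc1r was at 2.14 ± 1.34 and 2.19 ± 1.35 CPM. Kit, the receptor of melanocyte and mast cell precursors, was at 36.6 ± 3.76 and 24.3 ± 12.5 CPM. Of the closest relatives of the 8 genes 14 of 19 were tested and 0 were called by the edgeR LRT, QLF or DESeq2, with 4 at an unadjusted LRT p under 0.05 (Erbb2, Tfeb, Fabp4 and S100a10). Ednra, the other endothelin receptor, was at means of 4.01 and 2.93 CPM without overlap (edgeR LRT FDR 0.999), and Tfe3, a relative of Mitf, at 51.1 ± 3.01 and 60.1 ± 3.0 CPM, likewise without overlap and in the opposite direction (edgeR LRT FDR 0.999).

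Some markers of vessel cells were called between genotypes by the LRT, the same ones by DESeq2, and none by QLF. At an unadjusted p under 0.05 there were 4 endothelial and 7 mural genes by LRT, where 7.78% of all genes were. The numbers by QLF were the same, where 6.77% of all genes were. Of 12 endothelial genes, all tested, 2 were lower in the Casp2-/- tumors, Pecam1 (log2 fold change -1.20, edgeR LRT FDR 0.000552, QLF FDR 0.0812) and Kdr (-1.46, edgeR LRT FDR 0.0308, QLF FDR 0.220). Of 10 mural cell genes, all tested, 3 were lower, Rgs5 (-1.85, edgeR LRT FDR 0.0265, QLF FDR 0.224), Acta2 (-1.97, edgeR LRT FDR 0.0402, QLF FDR 0.270) and Notch3 (-1.79, edgeR LRT FDR 0.0314, QLF FDR 0.237). Leaving out a tumor, Pecam1 was called in 8 of 8 fits, Kdr in 1, Rgs5 in 2, Acta2 in 2 and Notch3 in 3. The summed endothelial level was 88.7 to 151 CPM in the Th-MYCN and 58.8 to 82.0 CPM in the Casp2-/- tumors, and the summed mural level 80.1 to 180 and 50.1 to 73.4 CPM, both without overlap. Ednrb, which endothelial cells also express, was lower in the same tumors, and the part of these markers in its result was not tested.

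For macrophages, in which Mitf is also expressed, 10 genes were tested and 0 were called by the edgeR LRT, QLF or DESeq2, with 0 at an unadjusted LRT p under 0.05. Their summed level was 658 to 950 and 387 to 914 CPM, with overlap, and its part in the Mitf result was not tested. The 7 mast cell genes summed to at most 0.321 CPM in any neuroblastoma. Of 9 fibroblast genes, at sums of 497 to 775 and 364 to 940 CPM, 0 were called by these tests, and 0 of the 8 B cell and 5 T cell genes were, with 1, 1 and 0 at an unadjusted LRT p under 0.05. Of 13 neuroblast genes tested 0 were called by the edgeR LRT, QLF or DESeq2, with 5 at an unadjusted LRT p under 0.05 and a median log2 fold change of -0.34. Th, whose promoter drives the transgene, was at 314 to 1447 CPM in the Th-MYCN and 75.9 to 246 CPM in the Casp2-/- tumors, without overlap (log2 fold change -2.55, edgeR LRT FDR 0.0546).

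In the lymphomas, where the same genotype comparison serves as a setting without crest-derived tumor cells, 0 of the 8 genes were called by the edgeR LRT, against 1.44% of all genes. The unadjusted p was under 0.05 for 2 of them by LRT, Sox10 and Foxd3, and for 0 by QLF, against 9.89% and 8.53% of all genes. DESeq2 called 0. The groups overlapped for all 8, where 3.70% of all genes had no overlap. Sox10 was at 0.175, 0.855, 0.236 and 1.70 CPM in EuMyc614, EuMyc743b, EuMyc829 and EuMyc835, and at 0, 0.0835 and 0.404 CPM in EuMycC2ko215, EuMycC2ko239 and EuMycC2ko245, with an edgeR LRT FDR of 0.374. Cdh19 had at most 0.175 CPM in any lymphoma, S100b at most 0.513 and Fabp7 at most 0.787 CPM. Foxd3 had reads in 2 lymphomas only, 0.0875 CPM in EuMyc614 and 0.977 CPM, which was 5 reads, in EuMycC2ko215. Most of these values were near the limit of detection, and the part of depth in the lack of calls was not tested.

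Erbb3 was uneven among the lymphomas, at 0.350, 0.855, 1.42 and 7.22 CPM in EμMyc and 0, 3.0 and 0.303 CPM in EμMyc/Casp2-/- tumors. Only EuMyc835 and EuMycC2ko239 reached 3 CPM, and the groups overlapped (log2 fold change -1.08, SE 0.947, edgeR LRT FDR 0.817). Without EuMyc835 its log2 fold change was 0.42. Ednrb was at 4.64, 4.79, 3.78 and 2.65 CPM and at 1.76, 4.34 and 2.42 CPM, with a log2 fold change of -0.45 (SE 0.471, edgeR LRT FDR 0.841). Mitf was at 5.51, 2.22, 2.91 and 2.02 CPM and at 10.7, 6.26 and 3.33 CPM, where the highest value belonged to EuMycC2ko215, the library that stood apart. Its log2 fold change was 1.08 (SE 0.618, edgeR LRT FDR 0.591, QLF FDR 0.660).

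The interaction of genotype and tumor type asked whether the change with loss of Casp2 differed between lymphomas and neuroblastomas. Mitf was the 1 of 8 genes called, against 0.914% of all genes, with a change in the lymphomas that was higher than that in the neuroblastomas by 3.21 on the log2 scale (SE 0.841, edgeR LRT FDR 0.0284). The DESeq2 FDR was 0.0226 and the QLF FDR 0.318. For Ednrb the difference of the changes was 1.27 (edgeR LRT FDR 0.535) and for Sox10 -2.66 (edgeR LRT FDR 0.294). The call of Mitf was kept in 5 of the 15 fits that left out a tumor, at values of 2.58 to 3.64, and it was lost with onset as a covariate.

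Lymphomas were then set against neuroblastomas of the same genotype, to see which of the 8 genes differed between tumor types. With Casp2 intact, 6 of the 8 were called lower in EμMyc than in Th-MYCN tumors, namely Sox10, S100b, Foxd3, Cdh19, Fabp7 and Mitf, where 28.5% of all genes were called lower. The groups were apart, with the lymphomas lower, for 5 of these and for 32.9% of all genes. Sox10, S100b, Foxd3, Cdh19 and Fabp7 passed the filter only through the neuroblastomas, where they are high, so the count itself lends no support. Sox10 had means of 0.741 ± 0.708 CPM in EμMyc and 12.2 ± 6.99 CPM in Th-MYCN tumors (SD, n = 4 each). Its log2 fold change was -4.06 (edgeR LRT FDR 4.86e-09, QLF FDR 0.000102). Cdh19 had a log2 fold change of -5.20 (edgeR LRT FDR 1.38e-12), Fabp7 of -4.45 (edgeR LRT FDR 2.59e-05) and S100b of -2.07 (edgeR LRT FDR 0.00918).

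Foxd3 had 1 read in the 4 EμMyc tumors and 420 in the 4 Th-MYCN tumors, a ratio of 298 with a counting interval of 53.3 to 11814. This interval holds counting error of the pooled reads only and leaves out the spread between animals. Erbb3 and Ednrb did not pass the test between these tumor types. Erbb3 was at 2.46 ± 3.20 and 4.42 ± 1.71 CPM (log2 fold change -0.85, edgeR LRT FDR 0.389), and without EuMyc835 it was at -2.32 and called (edgeR LRT FDR 0.00671). Ednrb was at 3.97 ± 0.980 and 5.65 ± 2.27 CPM (log2 fold change -0.50, edgeR LRT FDR 0.288). Mitf, at 3.17 ± 1.61 and 9.41 ± 7.28 CPM, was called lower in the lymphomas (log2 fold change -1.57, edgeR LRT FDR 0.0123) with overlapping groups, and without MYCN391 it was at -0.94 and not called (edgeR LRT FDR 0.131).

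Among Casp2-/- tumors 6 genes were called lower in the lymphomas, against 27.6% of all genes, and Mitf was called higher, against 20.5% of all genes. As above, Sox10, S100b, Foxd3, Cdh19 and Fabp7 had passed the filter only through the neuroblastomas, so the count lends no support here either. The lymphomas were lower without overlap for 31.2% of all genes and higher without overlap for 23.6%. Sox10 had a log2 fold change of -6.72 (edgeR LRT FDR 8.89e-13), S100b of -4.12 (edgeR LRT FDR 1.12e-05), Foxd3 of -5.50 (edgeR LRT FDR 2.13e-09) and Erbb3 of -2.48 (edgeR LRT FDR 0.0235, QLF FDR 0.0507). Cdh19, with 0 reads in the EμMyc/Casp2-/- and 402 in the Th-MYCN/Casp2-/- tumors, was at least 69.4-fold lower, when 3 reads over the group were taken as its limit. Fabp7 had 3 reads in the EμMyc/Casp2-/- tumors, which gave a ratio of 250 with a counting interval of 85.4 to 1214. That interval, too, leaves out the spread between animals. Ednrb, at 2.84 ± 1.34 CPM in 3 lymphomas and 1.71 ± 0.317 CPM in 4 neuroblastomas, was not called (edgeR LRT FDR 0.156).

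Mitf stood in opposite orders in the tumor types of the 2 genotypes, at means of 3.17 and 9.41 CPM with Casp2 and of 6.78 and 2.14 CPM without it, lymphoma first. The Casp2-/- lymphomas lay above all Casp2-/- neuroblastomas (log2 fold change 1.64, edgeR LRT FDR 0.0151, QLF FDR 0.0268). Without EuMycC2ko215 the value was 1.22 and no longer called (edgeR LRT FDR 0.0990), and with onset as a covariate it was 0.94 (edgeR LRT FDR 0.401).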

How the data were processed

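Poly(A) RNA of 15 tumors was sequenced by the authors on an Illumina instrument (single-end, 50 bases), checked with FastQC and aligned to mm10/GRCm38 with STAR. Per the labels, the deposited values are counts of reads per gene without normalization. Versions and annotation were not given in the sources used here. As in the study, the second strand column was used, and reads on no gene were left out. A further EμMyc/Casp2-/- tumor was not analysed here.

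The filter kept any gene above 1 CPM in 3 or more tumors. Counts were scaled by TMM and modelled in edgeR 4.0.16 (R 4.3.3) over all 15 tumors with 4 group terms. The main test was the likelihood ratio test, with the quasi-likelihood test and DESeq2 1.42.0 beside it. A call needed an FDR below 0.05 over all genes tested and a log2 fold change beyond 1 in either direction. Log2 CPM used a prior count of 2, and correlations had two-sided exact permutation tests (scipy 1.17.1). Other settings were other size factors, no filter, both strands or the first strand, only the tumors compared, sex or onset as covariates, and each tumor left out. Positions came from GENCODE M21 and promoters from RefSeq, by symbol. Tested on simulated counts of 14621 genes for the neuroblastoma comparison, the likelihood ratio test called 68 of 100 genes changed by 1.5 on the log2 scale and 86 of 100 changed by 2, with 20 false calls, and the quasi-likelihood test 63, 80 and 5. The changed genes were drawn only from those above a minimum mean count, so these rates do not cover genes with few reads. Before the change each simulated gene had the same mean in all groups. The rates therefore do not cover genes that differ between tumor types, as most of the 8 do. Chi-square tests of the 21 pairs of tumors within groups gave at least 16.2 per degree of freedom, so no library was a copy of another.

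The 8 genes and the lists were chosen with earlier results of these data known. Named were the 8 genes, the called genes of each list with up to 4 of its most abundant, Casp2, and the genes most like Sox10 (10), Ednrb (5) and Mitf (5) by Pearson r, of which 1 gene is not reported here. Other names, which are Lgi4, Gjc3, Scn7a, Col28a1, Gfap, Ngfr, Slc1a3, Nes, Erbb2, Edn3, Ednra, Tfeb, Dct, Tyr and Th, were picked after their values were seen.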

Additional observations from a re-analysis of the deposited data

Results flagged for a closer look

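In 4 of 24 groups of 4 tumors (8 genes in the 3 groups of that size) the tumor at one end lay apart from the others by Dixon's test at 95%, where chance alone gives about 1 in 20 groups. Sox10 was at 22.7 CPM in MYCN332, with a gap of 0.970 of the range to the other 3 Th-MYCN tumors, at 8.42 to 8.86 CPM. S100b was at 7.71 CPM in MYCNC2ko176, against 2.18 to 2.45 CPM in the other Th-MYCN/Casp2-/- tumors. Erbb3 was at 7.22 CPM in EuMyc835, against at most 1.42 CPM in the other EμMyc tumors. Foxd3 was at 0.0875 CPM in EuMyc614, which was 1 read, and at 0 in the other EμMyc tumors. This lies below the detection limit of 3 reads, where a gap of the whole range follows from 1 read against 0, so it is not to be counted against the chance rate.

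The change of Mitf with loss of Casp2 differed between lymphomas and neuroblastomas by 3.21 on the log2 scale (edgeR likelihood ratio test FDR 0.0284), a test of the difference itself. By the quasi-likelihood test the FDR was 0.318, and the likelihood ratio call was kept in 5 of the 15 fits that left out a tumor.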

How the results depend on the processing

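No paired analysis was possible because the labels give mouse numbers and no replicate numbers shared between groups. Of the 8 genes, 2 were called between genotypes in the neuroblastomas. The number was 0 by the quasi-likelihood test, 1 without a filter, 1 with first strand counts (a setting added after the data were seen), 1 with sex and 1 with onset as a covariate, 4 with only the tumors compared, and 0 to 2 with a tumor left out. Of all genes, 121 were called, against 5 by the quasi-likelihood test, 277 with only the tumors compared, 54 with sex, 66 with onset and 30 to 187 with a tumor left out. In the lymphomas 215 of all genes were called, against 21 by the quasi-likelihood test, 35 with only the tumors compared, 103 with sex, 109 with onset and 75 to 546 with a tumor left out. For the interaction 1 of the 8 genes was called, against 0 by the quasi-likelihood test, 0 with onset and 0 to 1 with a tumor left out, and 136 of all genes, against 8 by the quasi-likelihood test, 76 with sex, 65 with onset and 55 to 319 with a tumor left out. The cause of these shifts was not tested. The interaction of Foxd3 reversed with first strand counts, at -0.087, and ranged from -2.51 to 3.87 with a tumor left out. Lymphoma log2 fold changes that changed sign with a tumor left out were those of S100b (-4.80 to 0.23), Erbb3 (-3.66 to 0.42) and Foxd3 (-1.75 to 4.63), genes with few reads there. With a tumor left out, 327 log2 fold changes of members kept direction and side of the threshold, 26 lost the call, 1 gained it and 6 reversed. In the other settings these numbers were 333, 11, 2 and 1.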
